A study of Sus scrofa with 10 samples.

Results

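The genes described here are the translation factors and the transfer RNA (tRNA) synthetases read by a porcine expression array in aortic valve leaflets. They were chosen by name: genes whose only symbol in the array annotation begins with EIF or EEF, or is 1 letter followed by ARS, ARS1 or ARS2. The rule found 60 of the 6765 genes that have exactly 1 symbol: 36 with initiation factor symbols (EIF), 6 with elongation factor symbols (EEF) and 18 synthetases. They were read by 90 probe sets, groups of short probes against a transcript, and a gene with several was read from its brightest, the probe set whose values averaged highest on the 10 arrays.

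Leaflets came from 3 groups of female swine fed standard chow. The juvenile wild-type (WT) group, 3 arrays, was Rapacz Wisconsin Miniature Swine with the genotype wild type (RFH -/-) at 3 months. The juvenile RFH group, 3 arrays, was of the Rapacz Familial Hypercholesterolemic (RFH) breed, swine with inherited high blood cholesterol, at 3 months. The adult RFH group, 4 arrays, was of the same breed at 2 years. With no adult WT group, age and the course of the disease cannot be told apart in the adult comparison, and breed and genotype differ together in the juvenile one. Whether every array holds a different animal is not stated in the labels, and p-values therefore cover the spread among samples, which may be partly technical. In a whole leaflet, fewer cells of a type and less RNA per cell cannot be told apart.

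Initiation factors load the small ribosomal subunit with the initiator tRNA, bring it to the capped end of a messenger RNA and find the start codon. Elongation factors then deliver charged tRNAs to the ribosome, and the synthetases charge each tRNA with its amino acid. Cells adjust the whole process mainly through the cap-binding protein eIF4E, which 4E-binding proteins hold inactive, and through eIF2, whose recharging by the exchange factor eIF2B is blocked when stress kinases phosphorylate it. In a valve leaflet it also serves the interstitial cells, which secrete the matrix.

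Values are deposited log2 expression values, so a difference of 1 is a doubling, and a level is read only against the same probe set on other arrays. Group differences carry the standard error (SE) of a limma fit of all 10 arrays. A gene is called, and is said to have risen or fallen, at a Benjamini-Hochberg adjusted p under 0.05 over 23999 probe sets. Array medians lay between 6.96 and 7.03. The median SD over replicate arrays of all probe sets was 0.0949, 0.125 and 0.188 for juvenile WT, juvenile RFH and adult RFH. Over the brightest probe sets of the 60 genes it was 0.057, 0.0938 and 0.141.

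Between adult and juvenile RFH leaflets 7 of the 60 genes, read from their brightest probe sets, passed the test. Of the 60 genes 5 rose: EIF4A1, EEF1E1, DARS, EIF3I and NARS. EIF4EBP2 and EIF2B2, 2 genes, fell. The called share was 11.7% of the 60 genes, beside 19.3% of all 6765 genes. Rises made up 8.33% of the 60, beside 11.4% of all genes, and falls made up 3.33%, beside 7.85%. The adult and juvenile RFH arrays did not overlap in 20 of the 60 genes, 33.3%, beside 29.9% of all genes. The median difference was 0.02 in the 60 genes and 0.02 in all genes. The median absolute difference was 0.17 and 0.20. Of the 60 genes 24 differed by less than 0.1 in either direction, 40 by less than 0.25, 6 by at least 0.5 and 1, EIF4A1, by at least 1. An unadjusted p under 0.05 was reached by 18. Neither this count nor the counts by size were made over all genes.

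With quantiles made equal across arrays, 10 of the 60 genes were called, 6 up and 4 down, against 5 and 2 as deposited; they were 16.7% of the 60, beside 20.1% of all genes. Leaving out single arrays moved the count over the 60 and over all genes in the same direction. Without juvenile RFH replicate 3 the called genes numbered 4, 6.67% beside 11.1% of all genes, and without adult RFH replicate 3 they numbered 12, 20% beside 24.1%. EIF4A1, EEF1E1, DARS and EIF4EBP2 were called in all 10 of these fits, EIF2B2 was lost in 4, EIF3I in 7 and NARS in 7. The DARS call depends on which of its probe sets stands for the gene, as described with the synthetases.

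**Figure D1:**
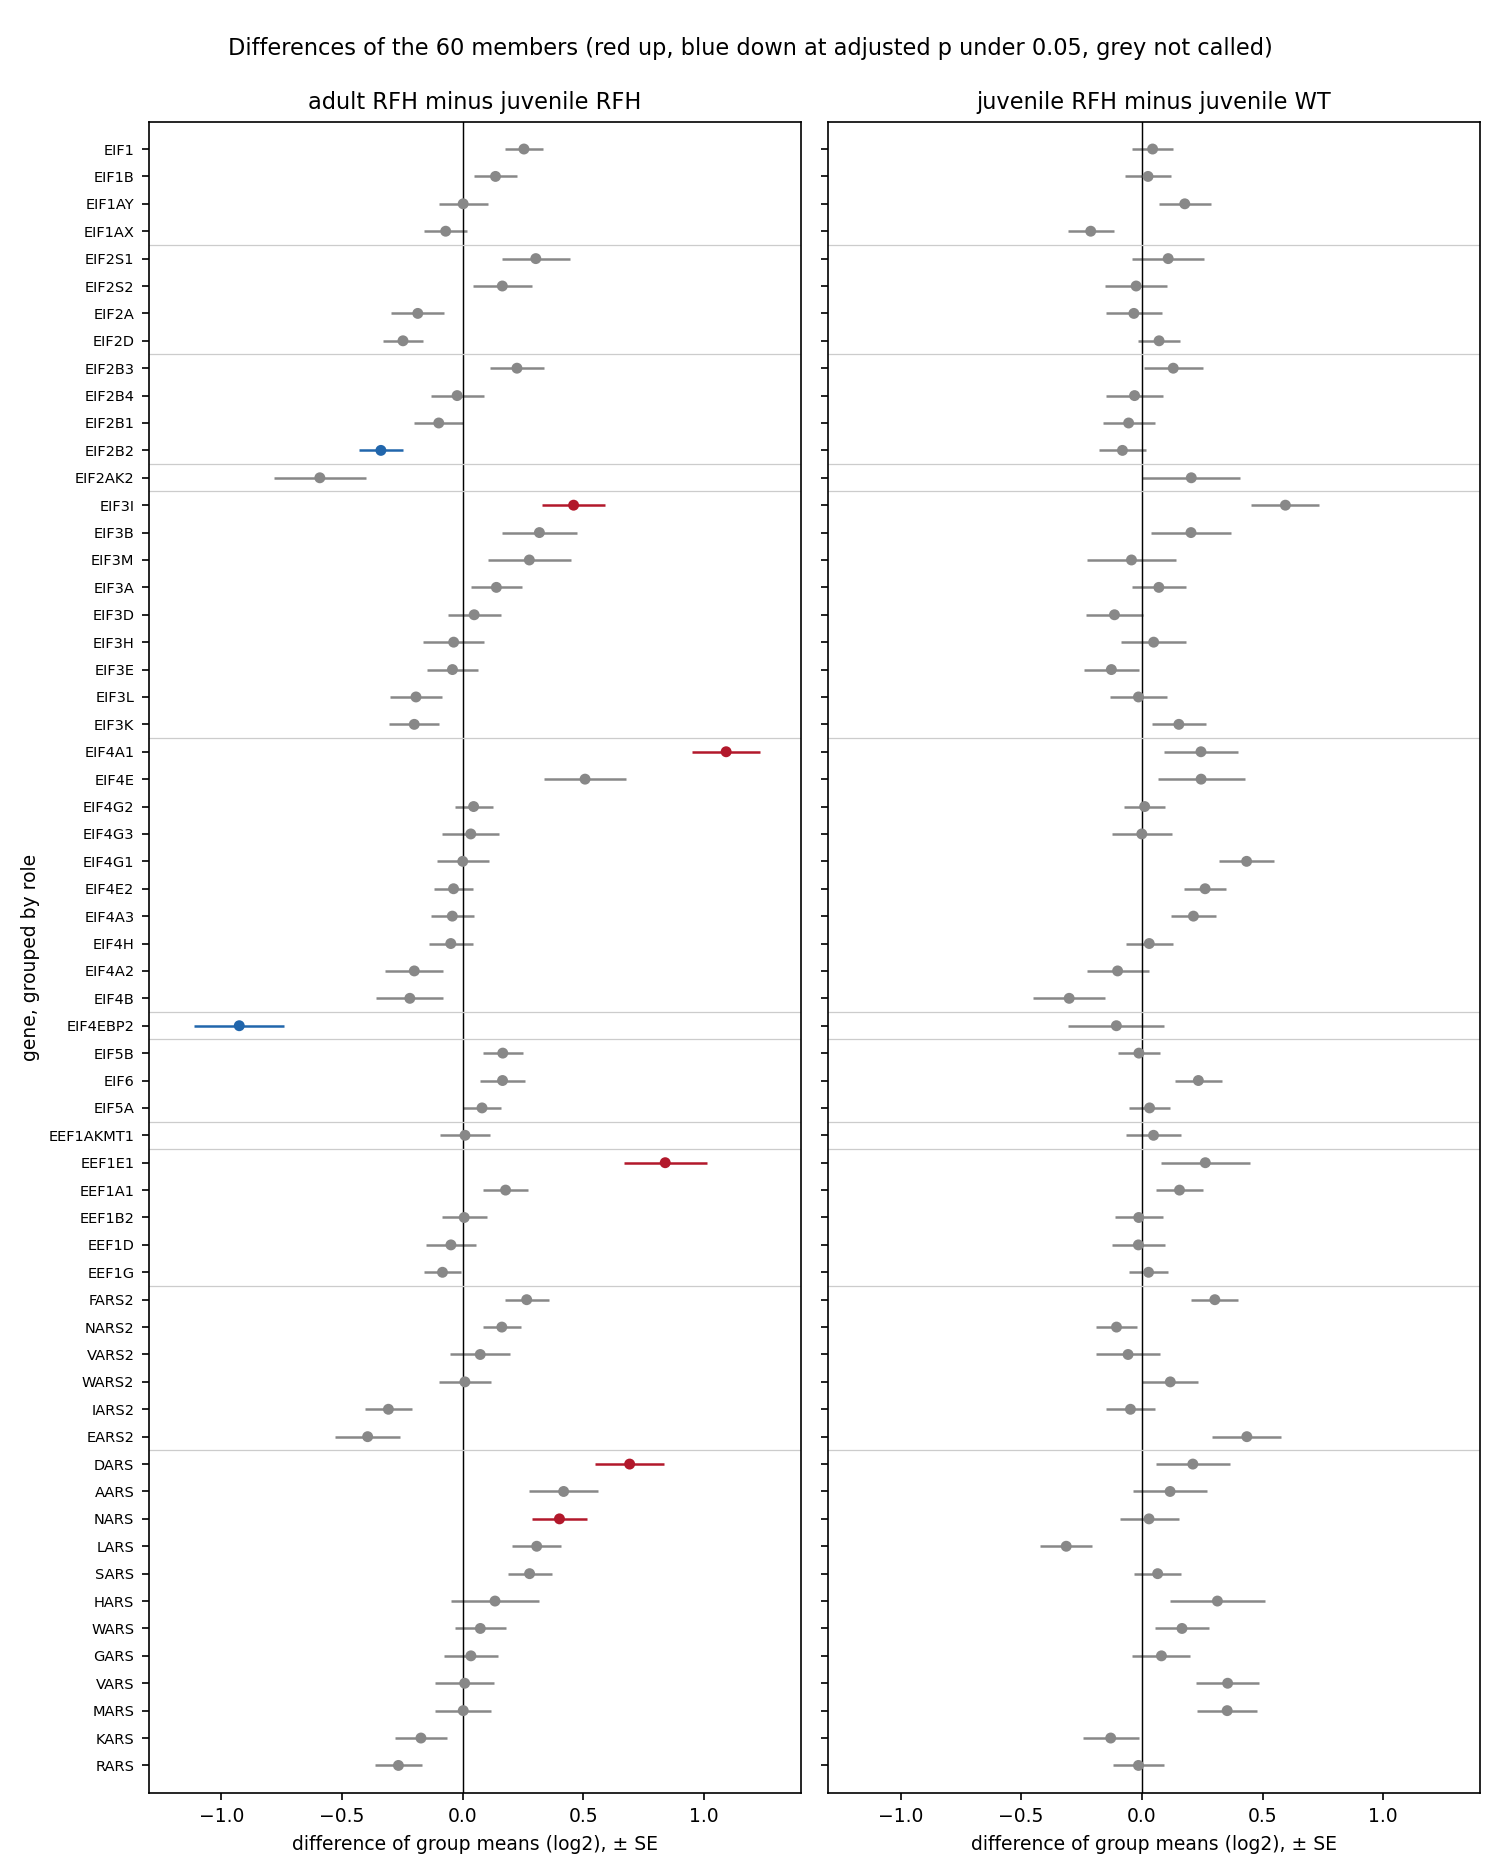
Difference of group means (log2, dots) with its SE (bars) for each of the 60 genes, grouped by role, for adult minus juvenile RFH (left) and juvenile RFH minus juvenile WT (right). Red marks the 5 called rises and blue the 2 called falls; the other genes are grey, and no gene is called on the right.

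The cap-binding complex eIF4F is built of eIF4E, which holds the cap, the scaffold eIF4G and the RNA helicase eIF4A, which unwinds the leader. EIF4A1, the main helicase gene, read 10.89, 10.98 and 10.93 in juvenile WT, 11.15, 11.23 and 11.16 in juvenile RFH and 12.20, 12.68, 12.24 and 11.97 in the adults. Every adult array lay above every juvenile array, and adult replicate 2 was highest. The adult mean was 2.13-fold that of juvenile RFH, 1.09 on the log2 scale (SE 0.14, limma adjusted p = 0.000886).

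The other eIF4A genes were not called. EIF4A2, which encodes a closely related helicase, read 13.28, 13.16 and 13.29 in juvenile RFH and 13.32, 13.03, 12.76 and 13.06 in adults, a difference of -0.20 (SE 0.12, limma adjusted p = 0.287) with overlapping groups. EIF4A3, the helicase of the exon junction complex that marks spliced RNA, differed by -0.04. Whether the EIF4A1 difference exceeds theirs was not tested.

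EIF4E, the cap-binding protein, read 8.12, 8.12 and 8.02 in juvenile WT, 8.25, 8.30 and 8.44 in juvenile RFH and 9.20, 9.09, 8.44 and 8.61 in adults. Adult replicates 1 and 2 stood apart from juvenile RFH, while replicate 3 lay just above the highest juvenile RFH array. The difference of 0.51 (SE 0.17) was not called (limma adjusted p = 0.0647). It was called without adult replicate 3, at 0.64 (adjusted p = 0.0137), and without adult replicate 4, at 0.58 (adjusted p = 0.0479); over all 10 fits with an array left out the largest adjusted p was 0.18.

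The scaffold EIF4G1 read 10.26, 10.14 and 10.07 in juvenile RFH and 9.93, 10.34, 10.24 and 10.13 in adults, a difference of 0.0002 (SE 0.11, limma adjusted p = 0.999). EIF4G3, its relative, differed by 0.03 and EIF4G2, a scaffold that lacks the eIF4E-binding part, by 0.05. The helicase helpers EIF4B and EIF4H differed by -0.22 and -0.05, and EIF4E2, a cap-binding protein that represses translation, by -0.04. Of the 10 genes of this complex, its helpers and its relatives 1 rose and 9 were not called, and their median difference was -0.02.

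EIF4EBP2 encodes a 4E-binding protein, which competes with eIF4G for eIF4E until the kinase complex mTORC1 phosphorylates it. Its brightest probe set read 11.97, 12.13 and 12.23 in juvenile WT, 11.96, 12.04 and 12.01 in juvenile RFH and 10.68, 10.79, 11.53 and 11.31 in adults. All adult arrays lay below all juvenile arrays, replicates 1 and 2 furthest. The adult mean was 1.90-fold lower, -0.93 on the log2 scale (SE 0.19, limma adjusted p = 0.0083).

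EIF4EBP2 was also the only one of the 60 genes whose probe sets were called in opposite directions. Of its 5 probe sets 3 fell, by 0.93, 1.02 and 0.65 on the log2 scale. The next to brightest of them read 10.78, 10.77 and 10.83 in juvenile RFH and 9.45, 9.40, 10.10 and 10.14 in adults, again lowest in adult replicates 1 and 2. Another probe set rose by 0.61 (SE 0.12, limma adjusted p = 0.00745), from 8.80, 8.94 and 8.86 to 9.61, 9.55, 9.41 and 9.32, and the fifth differed by 0.02. Which part of the transcript each probe set reads was not analysed here. EIF4EBP1 was not read by any probe set of a single symbol and EIF4EBP3 only by probe sets with several, so EIF4EBP2 is the only 4E-binding protein gene reported.

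**Figure D2:**
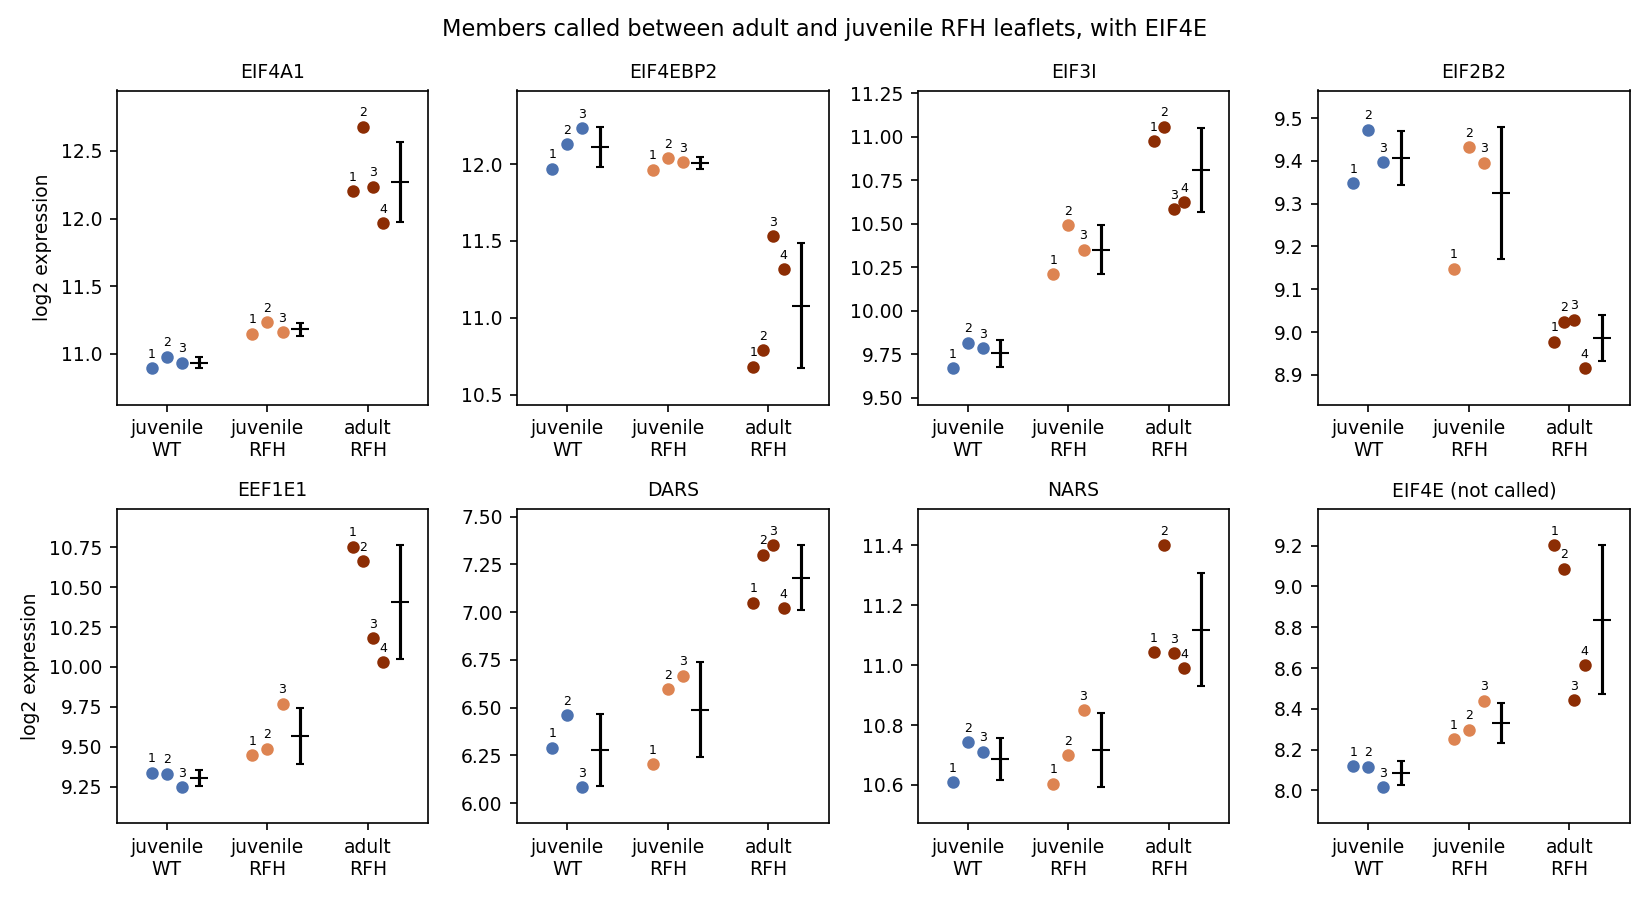
Log2 expression by array (dots, numbered by replicate) with the group mean and SD (bars) for the 7 genes called between adult and juvenile RFH and for EIF4E, which was not called. Each panel has its own scale; all 4 adult arrays lie outside the juvenile RFH range in the 7 called genes, and adult replicates 1 and 2 lie furthest from juvenile RFH in EIF4EBP2, EEF1E1, EIF3I and EIF4E.

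Adult replicates 1 and 2 were also the arrays with the highest mean macrophage, endothelial, lymphocyte and adipocyte markers and the lowest adult arrays in the mean of the valve interstitial cell markers. The mean of the 9 macrophage genes measured, of 13 listed, was 9.35 to 9.52 on juvenile WT arrays, 9.78 to 9.82 on juvenile RFH arrays and 10.76, 10.90, 10.30 and 10.26 in adult replicates 1 to 4, and 5 of the 9 genes rose. The mean of the 9 endothelial markers was 7.93 to 8.30, 8.33 to 8.61 and, in adult replicates 1 to 4, 9.27, 9.51, 8.49 and 9.09, with 3 rises. The mean of the valve interstitial cell markers, 7 measured of 8, was 12.42 to 12.46, 12.32 to 12.36 and, in the adults, 11.95, 11.72, 12.04 and 12.19, with 2 falls. The adipocyte markers, 4 measured of 6, averaged 7.15, 6.89, 6.23 and 6.09 in the adults, and 2 rose. The lymphocyte markers, 7 of 13, averaged 5.92, 6.73, 5.66 and 5.55, and 0 were called. Of the smooth muscle markers measured, 5 of 6, 1 fell, and of the erythroid markers, 3 of 5, 2 fell. Beside these marker counts, 11.4% of all genes rose and 7.85% fell. The part of cell makeup in the differences of the translation genes was not tested.

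The initiator tRNA is carried to the ribosome by eIF2, and eIF2B recharges eIF2 with GTP after each round. EIF2B2, which encodes the beta subunit of eIF2B, read 9.35, 9.47 and 9.40 in juvenile WT, 9.15, 9.43 and 9.40 in juvenile RFH and 8.98, 9.02, 9.03 and 8.91 in adults. The 4 adult arrays lay close together and below all juvenile arrays, of which juvenile RFH replicate 1 was lowest. The adult mean was 1.26-fold lower, -0.34 on the log2 scale (SE 0.09, limma adjusted p = 0.0299). The call was lost in a fit of the 2 groups alone (limma adjusted p = 0.0798, the largest among its alternatives other than leaving out arrays). It was also lost with the replicate number as a block and with an added 1.5-fold threshold.

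Of the other eIF2B subunit genes EIF2B3 differed by 0.22, EIF2B1 by -0.10 and EIF2B4 by -0.02, and none was called. A dimmer probe set of EIF2B1 fell from 6.69, 6.81 and 6.77 to 6.27, 6.23, 6.27 and 6.29, a difference of -0.49 (SE 0.08, limma adjusted p = 0.00364).

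EIF2S1, the eIF2 subunit that stress kinases phosphorylate, read 10.72, 10.76 and 10.89 in juvenile RFH and 11.29, 11.39, 10.84 and 10.85 in adults. Adult replicates 1 and 2 stood above the juvenile range and replicates 3 and 4 lay inside it, and the difference of 0.30 (SE 0.14) was not called (limma adjusted p = 0.168). EIF2S2, the beta subunit, differed by 0.16 (adjusted p = 0.394). EIF2D and EIF2A, which can bring an initiator tRNA to the ribosome without eIF2, differed by -0.25 (SE 0.08, adjusted p = 0.0649) and -0.19 (adjusted p = 0.275). The gamma subunit gene EIF2S3 had only probe sets with several symbols.

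EIF2AK2, also called PKR, is the eIF2 kinase that double-stranded RNA activates, and the only eIF2 kinase gene among the 60. It read 9.95, 9.93 and 9.98 in juvenile WT, 10.51, 9.57 and 10.39 in juvenile RFH and 9.44, 9.70, 9.59 and 9.54 in adults. Juvenile RFH replicate 2 read like the adults, and the other 2 juvenile RFH arrays were the highest of the 10. The difference between adult and juvenile RFH was -0.59 (SE 0.19, limma adjusted p = 0.0567) and was not called. Without juvenile RFH replicate 2 it was -0.89 (adjusted p = 0.00113), and over the fits with another array left out the largest adjusted p was 0.212. That array also had a mean of 9.15 over the 10 cardiac muscle markers measured, of 13 listed, against 5.35 to 5.86 on the 9 other arrays; the part of this in the EIF2AK2 value was not tested. EIF2AK3, the kinase of endoplasmic reticulum stress, was not read by any probe set of a single symbol.

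The scaffold eIF3 holds the small subunit ready for initiation. EIF3I, a subunit built of repeated WD motifs, read 9.67, 9.82 and 9.78 in juvenile WT, 10.21, 10.49 and 10.35 in juvenile RFH and 10.97, 11.06, 10.58 and 10.62 in adults. The 3 groups did not overlap, and both steps were upward. Adult against juvenile RFH was 1.38-fold, 0.46 on the log2 scale (SE 0.13, limma adjusted p = 0.0373). This call was lost in a fit of the 2 groups alone (limma adjusted p = 0.0901, the largest among its alternatives other than leaving out arrays). It was also lost with values below 4 raised to 4 and with an added 1.5-fold threshold.

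Of the 9 eIF3 genes 1 rose and 8 were not called, and the median difference was 0.05. EIF3B, the subunit that docks EIF3I, read 8.09, 8.17 and 8.19 in juvenile RFH and 8.46, 8.93, 8.20 and 8.28 in adults, 0.32 higher (SE 0.15, adjusted p = 0.188). EIF3K and EIF3L differed by -0.20 and -0.19, EIF3A, the largest subunit, by 0.14, and EIF3D, EIF3E and EIF3H by 0.05, -0.04 and -0.04. The probe sets of EIF3M disagreed: the brightest differed by 0.28 (limma adjusted p = 0.309) and the other by -0.40 (adjusted p = 0.0446). A dim second probe set of EIF3D, at 4.86 to 5.57 in juvenile RFH and 4.15 to 4.64 in adults, fell by 0.75 (adjusted p = 0.0136).

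Start codon choice depends on eIF1, which keeps the scanning ribosome open, and on eIF1A. EIF1 read 13.56, 13.64 and 13.68 in juvenile RFH and 13.83, 13.99, 13.86 and 13.84 in adults. The groups did not overlap, and the difference of 0.25 (SE 0.08) missed the threshold (limma adjusted p = 0.0518). A dimmer EIF1 probe set read 11.62, 11.69 and 11.66 in juvenile RFH and 12.33, 12.48, 12.51 and 12.47 in adults, a rise of 0.79 (SE 0.08, adjusted p = 0.000188). The related EIF1B differed by 0.14 and EIF1AX by -0.07. A second EIF1AX probe set, almost as bright (mean 11.17 against 11.20), differed by -0.27 without overlap (limma adjusted p = 0.0837). EIF1AY, the Y-linked copy of EIF1AX, read 2.96 to 3.36 on the arrays of these female swine, at the low end of the scale.

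EIF5B joins the ribosomal subunits, EIF6 keeps free large subunits apart from small ones, and EIF5A, which carries the modified amino acid hypusine, helps ribosomes past stalling peptides. EIF5B read 10.08, 10.11 and 10.17 in juvenile RFH and 10.32, 10.25, 10.32 and 10.25 in adults, a difference of 0.17 (SE 0.08, limma adjusted p = 0.196) without overlap. EIF6 differed by 0.17 and EIF5A by 0.08, and neither was called. Their adult and juvenile RFH arrays overlapped.

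The elongation factor eEF1 consists of eEF1A, which delivers charged tRNAs, and the exchange subunits that recharge it. EEF1E1, named for its resemblance to the exchange subunits, encodes a scaffold protein of the complex that holds several cytosolic synthetases together. It read 9.34, 9.33 and 9.25 in juvenile WT, 9.45, 9.49 and 9.77 in juvenile RFH and 10.75, 10.66, 10.18 and 10.03 in adults. All adult arrays lay above all juvenile arrays. The adult mean was 1.79-fold that of juvenile RFH, 0.84 on the log2 scale (SE 0.17, limma adjusted p = 0.00912), and its dimmer probe set differed by 0.63 (SE 0.25, adjusted p = 0.117).

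The exchange subunits proper had small differences. EEF1B2 read 13.96, 14.08 and 14.14 in juvenile RFH and 14.21, 14.13, 13.95 and 13.97 in adults, a difference of 0.01 (SE 0.09). EEF1D differed by -0.05 and EEF1G by -0.08, and EEF1AKMT1, a methyltransferase of eEF1A, by 0.01. None of these 4 genes was called.

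The eEF1A transcript is split in the array annotation between the symbols EEF1A1, which the rule takes, and EF1ALPHA, which it does not. EEF1A1 read 10.51, 10.59 and 10.52 in juvenile RFH and 10.76, 10.56, 10.89 and 10.66 in adults by its brightest probe set, 0.18 higher (SE 0.09, limma adjusted p = 0.22). Its 2 dimmer probe sets rose by 0.38 (adjusted p = 0.0337) and 0.69 (adjusted p = 0.0431). Of the 7 EF1ALPHA probe sets that are not array controls 2 fell and 0 rose. The one with the smaller p read 12.37, 12.25 and 12.23 in juvenile RFH and 10.31, 10.76, 10.60 and 11.10 in adults, a difference of -1.59 (SE 0.16, adjusted p = 0.000168), while the brightest differed by -0.03 (adjusted p = 0.802). Probe sets for this factor therefore gave rises, falls and no call on the same arrays.

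The array also carries control probe sets at the 3' and 5' ends of the EF1A transcript. Their difference, which grows as RNA breaks down or as labelling falls short of the 5' end, averaged 0.99 ± 0.12 (SD, n = 3) on juvenile WT arrays, 1.53 ± 0.28 (SD, n = 3) on juvenile RFH arrays and 1.88 ± 0.57 (SD, n = 4) on adult RFH arrays. Adults differed from juvenile RFH by 0.35 (two-sided exact permutation p = 0.4), a value that single arrays moved: it was 0.097 without adult replicate 3, 0.187 without juvenile RFH replicate 1 and 0.546 without adult replicate 1. Juvenile RFH differed from juvenile WT by 0.54 (two-sided exact permutation p = 0.1, which groups of 3 cannot go below). The mean over actin, GAPDH and EF1A differed by -0.02 (exact permutation p = 0.943) and 0.16 (exact permutation p = 0.2). Of the 36 poly-A control probe sets, which read bacterial transcripts added to the RNA, the 12 of the array's DapX, LysX, PheX and ThrX names averaged 0.80 higher in adults than in juvenile RFH (p = 0.0286 by the exact permutation test, its lower limit for groups of 4 and 3), and all 36 averaged 0.84 higher (exact permutation p = 0.0286). The part of labelling in the probe set differences was not tested. EEF2, EEF2K and EEF1A2 were not read by any probe set of a single symbol.

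**Figure D3:**
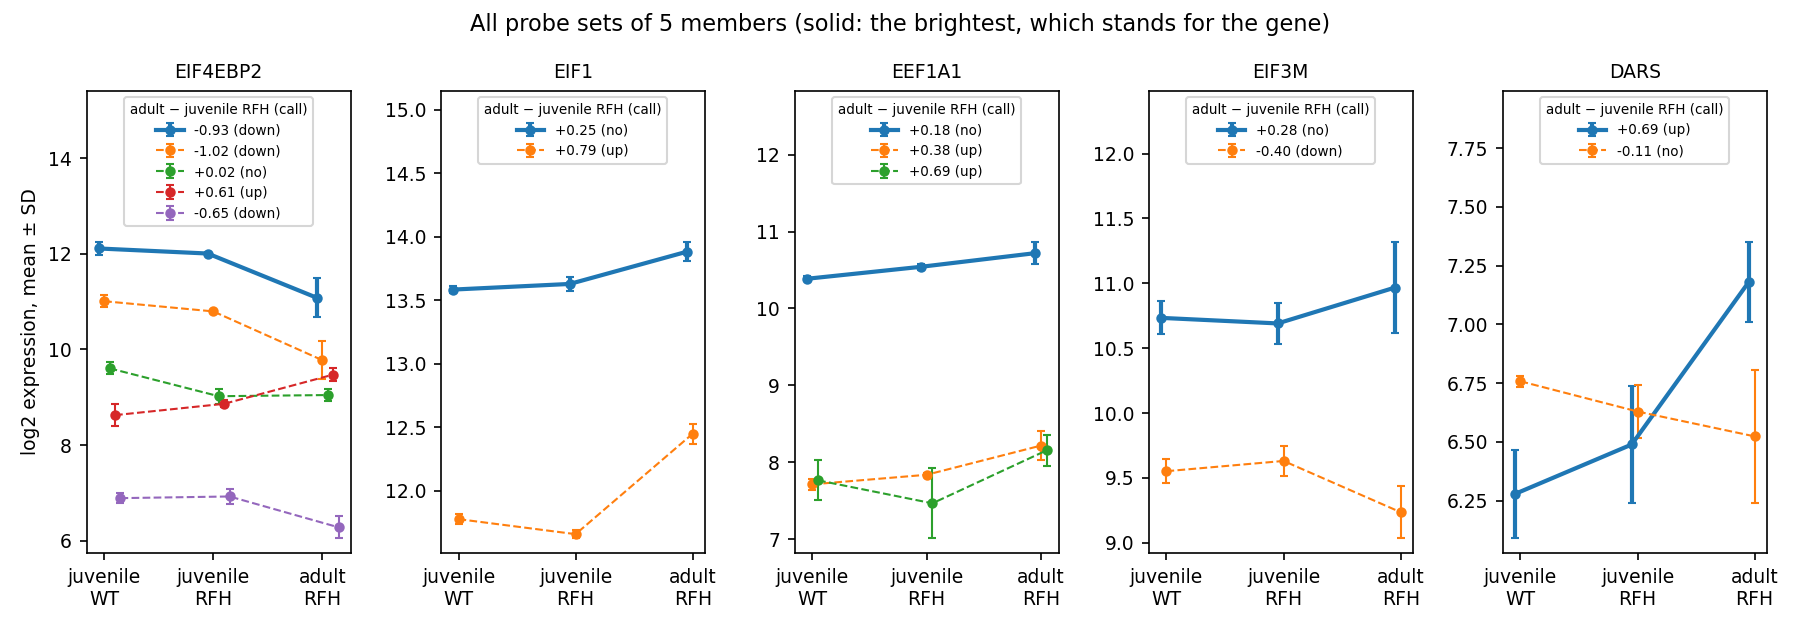
Log2 expression (mean ± SD over arrays) in the 3 groups for every probe set of EIF4EBP2, EIF1, EEF1A1, EIF3M and DARS; the solid line is the probe set that stands for the gene, and the keys give adult minus juvenile RFH and its call. Lines of a gene that run in different directions are probe sets that disagree, as in EIF4EBP2, where 3 fell and 1 rose.

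Disagreement between probe sets was not limited to these genes. Of the 60 genes 22 had several probe sets, 52 in all. In 6 of them, EEF1A1, EIF1, EIF2B1, EIF3D, EIF3M and EIF4E2, the brightest probe set was not called and a dimmer one was. Counted over all 90 probe sets, 10 rose and 7 fell, where 10.5% and 7.22% of all probe sets with 1 symbol did. With all probe sets of a gene averaged in place of the brightest, 13 of the 60 genes were called, 8 up and 5 down. That is 21.7% of the 60, beside 20% of all genes, so the lower share among the 60 genes seen with the brightest probe sets is not seen with their mean.

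Synthetases were grouped as cytosolic or mitochondrial by symbol, which does not show whether a gene serves both. Cytosolic synthetases charge tRNAs for the bulk of protein synthesis. Of the 12 measured 2 rose, 0 fell and 10 had a positive difference, with a median of 0.10. Over all genes 11.4% rose and 52.6% of the differences were positive. Among the 10, MARS, VARS and GARS differed by only 0.002, 0.01 and 0.03. With quantiles made equal across arrays these became -0.008, -0.008 and -0.007. DARS, which charges the aspartate tRNA, read 6.29, 6.46 and 6.08 in juvenile WT, 6.20, 6.60 and 6.67 in juvenile RFH and 7.05, 7.30, 7.35 and 7.02 in adults. All adult arrays lay above all juvenile arrays, 1.62-fold or 0.69 on the log2 scale over juvenile RFH (SE 0.14, limma adjusted p = 0.00945). Its other probe set, 6.76, 6.59 and 6.54 in juvenile RFH and 6.83, 6.66, 6.18 and 6.43 in adults, did not show this, with a difference of -0.11 (SE 0.14, adjusted p = 0.66). The first is the brightest over the 10 arrays only through its adult values: on juvenile arrays the second is brighter, with means of 6.76 against 6.28 in juvenile WT and 6.63 against 6.49 in juvenile RFH. With each gene's probe set chosen on the juvenile WT arrays, which are outside this comparison, DARS was not called and the other 6 called genes were. DARS was the only one of the 60 genes whose probe set changed with that choice.

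NARS, which charges the asparagine tRNA, read 10.61, 10.74 and 10.71 in juvenile WT, 10.60, 10.70 and 10.85 in juvenile RFH and 11.04, 11.40, 11.04 and 10.99 in adults. Adult replicate 2 stood above the other adults, which lay close together and above every juvenile array. The adult mean was 1.32-fold higher, 0.40 on the log2 scale (SE 0.11, limma adjusted p = 0.0364). This call was lost in a fit of the 2 groups alone (limma adjusted p = 0.0895, the largest among its alternatives other than leaving out arrays). It was also lost with arrays weighted by quality and with an added 1.5-fold threshold.

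Next in p-value were LARS, SARS and AARS, which charge leucine, serine and alanine tRNAs and whose adult and juvenile RFH arrays did not overlap. AARS read 9.82, 9.90 and 9.89 in juvenile RFH and 10.08, 10.69, 10.36 and 10.03 in adults, a difference of 0.42 (SE 0.14, limma adjusted p = 0.0722). LARS differed by 0.31 (adjusted p = 0.0616) and SARS by 0.28 (adjusted p = 0.0628). None was called.

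LARS also shows what the juvenile WT arrays add. It read 9.46, 9.57 and 9.55 in juvenile WT, 9.01, 9.28 and 9.35 in juvenile RFH and 9.40, 9.58, 9.57 and 9.52 in adults. The adult arrays overlapped those of juvenile WT, and juvenile RFH lay below both groups.

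For the arginine and lysine enzymes the differences were negative: RARS, 11.08, 11.10 and 11.21 in juvenile RFH and 10.94, 10.97, 10.63 and 10.93 in adults, differed by -0.27 (limma adjusted p = 0.0921), and KARS by -0.17 (adjusted p = 0.308). The glycine enzyme GARS read 10.69, 10.64 and 10.75 in juvenile RFH and 10.49, 10.99, 10.74 and 10.70 in adults, a difference of 0.03 (adjusted p = 0.871). The tryptophan enzyme WARS, which interferon induces, read 8.38, 8.46 and 8.47 and then 8.25, 8.65, 8.55 and 8.58, a difference of 0.07 (adjusted p = 0.69). HARS, VARS and MARS, for histidine, valine and methionine, differed by 0.13, 0.01 and 0.002. Adult replicate 2 was the highest adult array in AARS, NARS, LARS, SARS, RARS, HARS, WARS, GARS, VARS and MARS, and not in DARS or KARS.

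Mitochondrial synthetases serve the few proteins made inside the organelle, and 0 of the 6 measured were called. IARS2, for isoleucine, read 9.37, 9.38 and 9.38 in juvenile WT, 9.16, 9.40 and 9.43 in juvenile RFH and 9.01, 8.87, 9.13 and 9.08 in adults. Adults lay below both juvenile groups, by 0.31 against juvenile RFH (difference -0.31, SE 0.10, limma adjusted p = 0.0515). EARS2, for glutamate, differed by -0.39 (adjusted p = 0.0698) and FARS2, for phenylalanine, by 0.27 (adjusted p = 0.0706). NARS2, at 3.66 to 3.89 over all arrays and so at the low end of the scale, differed by 0.16, VARS2 by 0.07 and WARS2 by 0.01.

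**Figure D4:**
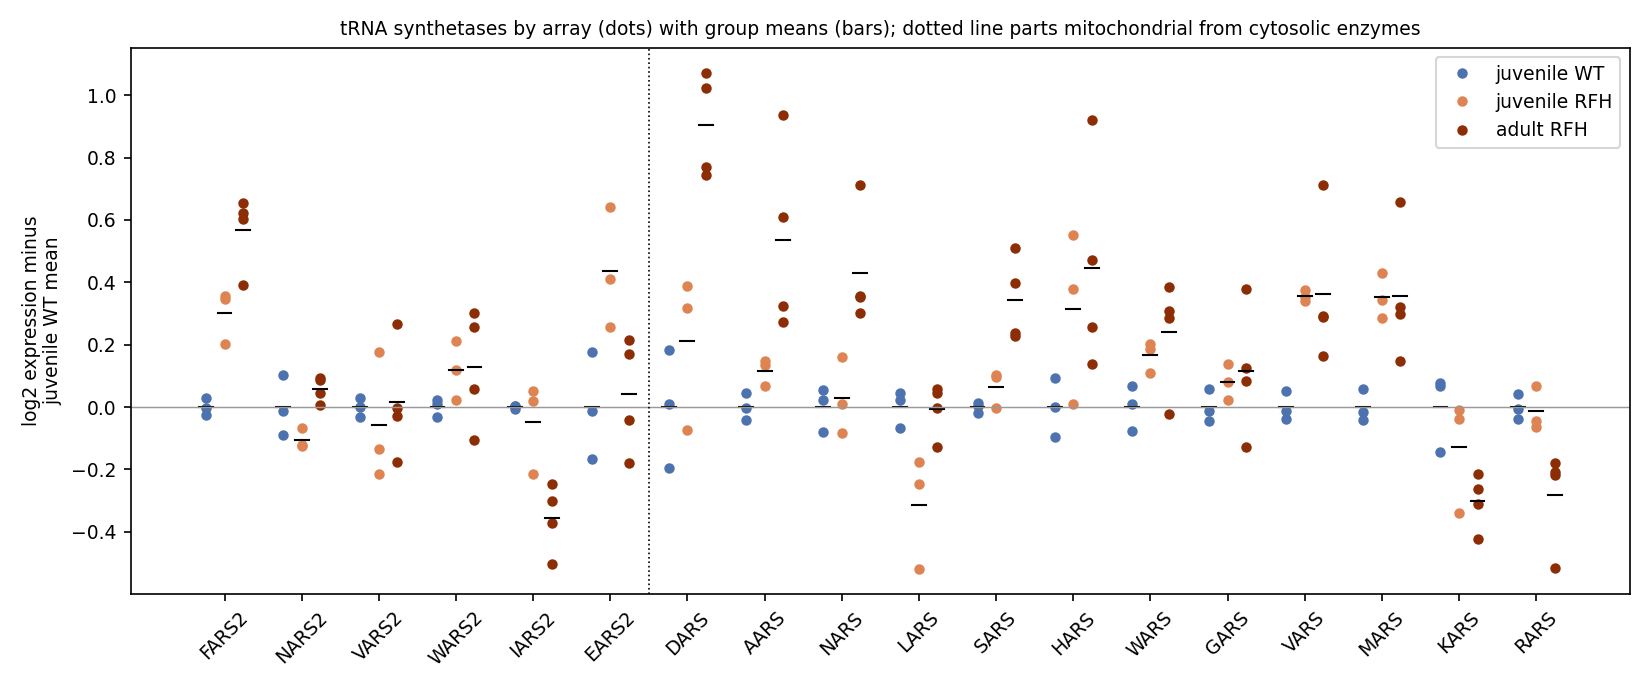
Log2 expression of each of the 18 synthetases by array, minus the gene's juvenile WT mean (dots), with group means (bars). The dotted line parts the 6 enzymes grouped as mitochondrial on the left from the 12 grouped as cytosolic. All 4 adult arrays lie above all juvenile arrays in DARS, NARS, AARS, SARS and FARS2, of which only DARS and NARS were called. AARS and FARS2 are higher in each of the 3 groups in turn without overlap. The DARS probe set shown is the brightest only through its adult values.

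Genes that work beside these families were read from 3 lists, again for adult against juvenile RFH, where 11.4% of all genes rose and 7.85% fell. Of 12 other genes of tRNA charging 7 were measured and 1 rose: AIMP2, which like EEF1E1 encodes a scaffold of the multi-synthetase complex, by 0.46 (SE 0.10, limma adjusted p = 0.0129), from 8.43 ± 0.09 (SD, n = 3) to 8.89 ± 0.16 (SD, n = 4). Of 13 genes of termination, recycling and poly(A) binding 3 were measured and 0 called; PABPC1, the main poly(A)-binding protein, had the smallest p, with a difference of -0.19 (adjusted p = 0.126). Of 9 mitochondrial translation factors 6 were measured and 1 fell, the release factor gene MTRF1L, by 0.41 on the log2 scale (adjusted p = 0.0222).

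The mTORC1 pathway with the cap complex, and a stress response program, were read from 2 further lists. Of 20 genes of the mTORC1 pathway and the cap complex 9 were measured and 3 fell, beside 7.85% of all genes. Their median difference was -0.17. AKT1S1, which encodes an inhibitory component of mTORC1, fell by 0.53 on the log2 scale (SE 0.11, limma adjusted p = 0.0108), RRAGA, a GTPase that recruits mTORC1 to lysosomes, by 0.44 (adjusted p = 0.0121), and SESN1, a stress-induced inhibitor of mTORC1, by 0.96 (adjusted p = 0.0191). They include inhibitors and an activator of the same kinase.

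The integrated stress response is the program that follows phosphorylation of eIF2, in which bulk initiation falls while the transcription factor ATF4 is made. Of 22 listed genes 14 were measured, 6 rose, 3 fell and 5 were not called, with a median difference of 0.27. Over all genes 11.4% rose and 7.85% fell, and the median difference was 0.02. The 3 rises with the smallest p were ATF3, a transcription factor that many stresses induce, by 3.47 (SE 0.22, limma adjusted p = 1e-05), CEBPB, a partner of ATF4, by 1.51 (adjusted p = 1.14e-05), and PPP1R15A, the phosphatase subunit that removes the phosphate from eIF2, by 1.94 (adjusted p = 7.1e-05). ATF4 itself, named after its value was seen, rose by 0.44 (adjusted p = 0.0183). The 3 falls were PSAT1 and PHGDH, enzymes of serine synthesis, by 0.74 and 0.45, and the lipoprotein receptor VLDLR, by 0.74 (limma adjusted p = 0.0105, 0.0432 and 0.0184). In ASNS, the asparagine synthetase that ATF4 activates, adults differed from juvenile RFH by 0.24 (adjusted p = 0.487). In none of the 5 lists was a gene called between juvenile RFH and juvenile WT.

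**Figure D5:**
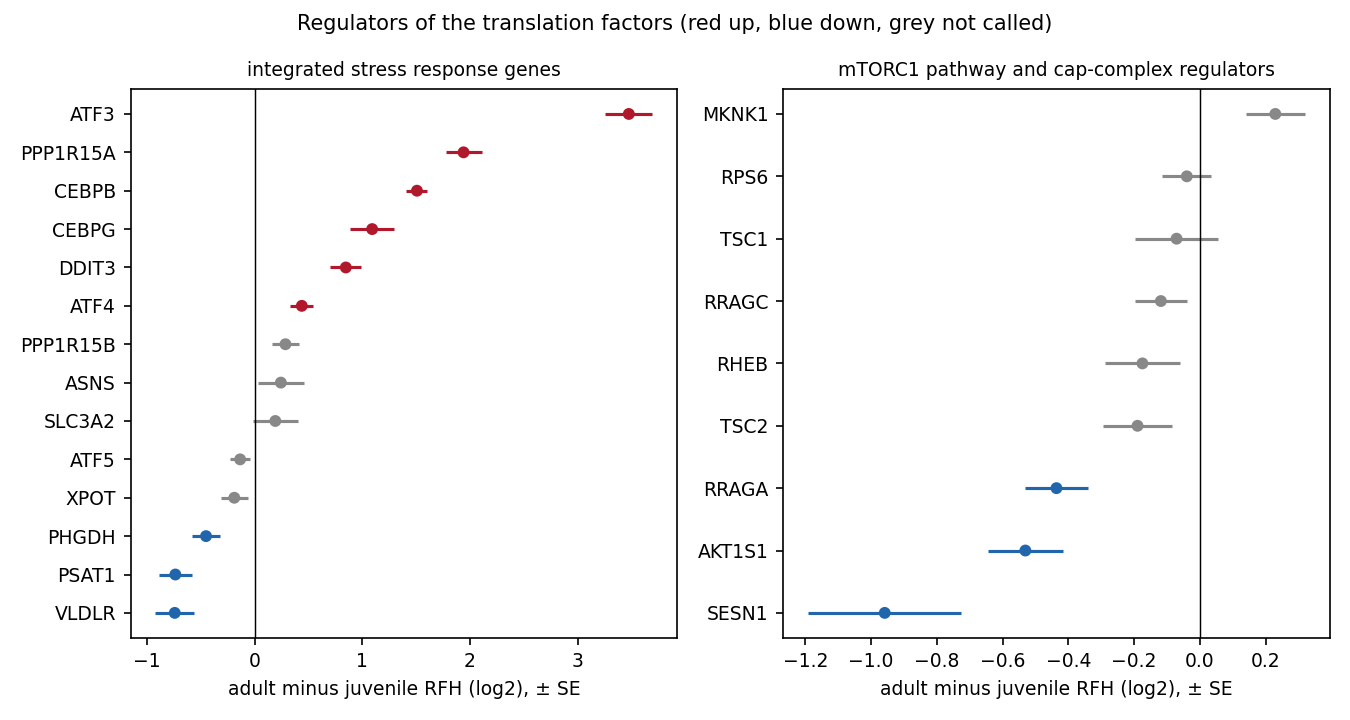
Adult minus juvenile RFH difference (log2, dots) with its SE (bars) for the measured integrated stress response genes (left, 14) and mTORC1 pathway and cap-complex regulators (right, 9). Red marks the 6 called rises and blue the 6 called falls, 3 in each list; the panels have different scales.

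Between juvenile RFH and juvenile WT leaflets 0 of the 60 genes were called, beside 0.133% of all 6765 genes, 9 genes. Rises were called in 0.0887% of all genes and falls in 0.0443%. An unadjusted p under 0.05 was reached by 11 of the 60, again without a count over all genes. The groups of 3 did not overlap in 20 of the 60 genes, 33.3%, beside 35.8% of all genes. The median difference was 0.05, beside 0.07 over all genes, 37 of the 60 differences were positive, beside 65.6% of all genes, and all lay between -0.31 and 0.59. This comparison shares the juvenile RFH arrays with the adult one, with opposite signs, so its values are only set beside the adult ones.

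The largest of these differences belonged to EIF3I, 9.67, 9.82 and 9.78 in juvenile WT against 10.21, 10.49 and 10.35 in juvenile RFH, 0.59 (SE 0.14, limma adjusted p = 0.137). EIF4G1 read 9.66, 9.75 and 9.76 in juvenile WT and 10.26, 10.14 and 10.07 in juvenile RFH, 0.43 (SE 0.11, adjusted p = 0.167), and its adult mean of 10.16 equalled that of juvenile RFH. In a fit of these 2 groups alone EIF3I, EIF4G1 and VARS, 3 of the 60 genes, were called, where 4.82% of all genes were. With arrays weighted by quality 6 were called, these 3 and EARS2, FARS2 and MARS, where 5.87% of all genes were.

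In the cap-binding complex, its helpers and its relatives 7 of 10 genes had a positive difference and 6 did not overlap. Over all genes 65.6% of the differences were positive and 35.8% did not overlap. Among the 6 were EIF4E, 0.25 (adjusted p = 0.628), EIF4A1, 0.24 (adjusted p = 0.553), and the relatives EIF4A3 and EIF4E2. By its brightest probe set EIF4EBP2 differed by -0.11, and EIF2S1 differed by 0.11. Probe sets of a gene disagreed here too. The 5 of EIF4EBP2 lay between -0.58 and 0.24, the lowest without overlap (SE 0.12, limma adjusted p = 0.0987). The 3 of EIF4E2 lay between -0.18 and 0.26, the lowest and the highest without overlap. EIF4H differed by 0.03 and, by its dimmer probe set, by -0.75 (adjusted p = 0.224). None of these was called. Among the late factors EIF6 differed by 0.23 (adjusted p = 0.355) and EIF5A by 0.03, and EEF1A1 differed by 0.16. In the eIF1 group EIF1AX had the smallest p, with -0.21 (adjusted p = 0.391), in the eIF2 group EIF2D with 0.07, and in the eIF2B group EIF2B3 with 0.13 (all limma).

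Of the synthetases VARS read 7.73, 7.76 and 7.82 in juvenile WT and 8.12, 8.11 and 8.14 in juvenile RFH, 0.36 (SE 0.13, limma adjusted p = 0.295), and MARS 8.60, 8.57 and 8.67 against 8.90, 8.96 and 9.05, 0.35 (SE 0.12, adjusted p = 0.276). Their adult means, 8.13 and 8.97, lay close to the 8.12 and 8.97 of juvenile RFH. EARS2 differed by 0.43, FARS2 by 0.30 and LARS by -0.31, and GARS, WARS and AARS by 0.08, 0.17 and 0.12, with none called. The dimmer probe sets of GARS differed by -0.23, without overlap, and by -0.19. Those of WARS differed by 0.25 and 0.21, and that of AARS by 0.16.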

How the data were processed

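Leaflet RNA, 400 ng per sample per the labels' protocols, carried a biotin label and was read on the Affymetrix GeneChip Porcine Genome array. The authors deposited log2 values of 24123 probe sets on each array; the unit was inferred from the range of the values. The submitters' processing notes name R 2.15.2; how background was corrected and arrays were normalized and summarised is not given in the sources used here, and these steps set how probe sets of a gene compare. The number of arrays, 3 or 4 per group, limits the precision.

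The fit leaves out 124 control probe sets. Group means of 10 arrays were fitted in R 4.3.3 by limma 3.58.1 (eBayes with no trend; 7 residual and 3.57 prior degrees of freedom) to 23999 probe sets; 10069 carry exactly 1 symbol. The fit was also run on simulated data in which a probe set had the same SD in every group. That run therefore does not cover the unequal spread of the groups. Of the 60 gene IDs 59 were found in the RefSeq gene table, where 0 symbols differed. It lists EIF2B4, EIF3B and EIF4B as noncoding RNA (lncRNA) and the others found there as protein coding. Descriptions of these genes here follow their symbols. Control probe sets were compared by exact permutation tests.

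The genes and lists were chosen with earlier results of these data known. The naming rule took called genes, the smallest p in each role group, and a set of genes of known importance; others are named to account for all 60. Alternatives were other scalings, a level filter, a fit of 2 groups, a trended prior, array weights, a replicate block, a floor, the mean of probe sets, a fold threshold and leaving out each array; choosing the probe set on the group outside a comparison and averaging all poly-A controls were added after seeing the data.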

Additional observations from a re-analysis of the deposited data

Results flagged for a closer look

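In 3 of the 60 genes 1 adult array stood apart from the other 3 by Dixon's test, which chance does in about 1 group in 20. EIF1 read 13.99 in adult RFH replicate 2 and 13.83 to 13.86 on the other adult arrays. NARS read 11.40 in adult RFH replicate 2 against 10.99 to 11.04. RARS, which charges the arginine tRNA, read 10.63 in adult RFH replicate 3 against 10.93 to 10.97.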

How the results depend on the processing

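For adult against juvenile RFH, 7 of the 60 genes were called, 5 up and 2 down. Called genes numbered 10 after quantile normalization (4 down; 16.7%, beside 20.1% of all genes), 10 with arrays centred on their medians (8 up; 16.7% beside 19.5%), 11 with cyclic loess (8 up; 18.3% beside 19.5%), 13 of 56 among probe sets at or above the median level (8 up, 5 down; 23.2% beside 26.1%), 4 in a fit of the 2 groups alone (3 up, 1 down; 6.67% beside 11.2%), 11 with values below 4 raised to 4 (4 down; 18.3% beside 17.4%), 13 with a gene's probe sets averaged (8 up, 5 down; 21.7% beside 20%) and 4 with an added 1.5-fold threshold (3 up, 1 down; 6.67% beside 10.8%). With the probe set chosen on the group outside the comparison, an alternative chosen after seeing the data, 6 were called, without DARS, which became -0.1058. With the replicate number as a block 7 were called, 1 of them down, and 6 of the 7 genes were the same. The groups differ in age or in breed and genotype, so the numbers were not taken as pairs. Deviations of same-numbered arrays correlated at -0.156, 0.157 and 0.086 (adult and juvenile RFH) and at 0.185, -0.011 and -0.069 (juvenile RFH and WT). Those of differently numbered arrays correlated at -0.202 to 0.191. So few correlations cannot exclude a pairing. Leaving out single arrays gave 4 to 12 called, 3 to 7 up and 1 to 5 down. For juvenile RFH against WT 3 genes, all up, were called with the 2 groups alone, 6, all up, with array weights, and 0 under every other alternative run, the replicate block included.

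Under the other alternatives the difference changed sign in 21 of the 60 genes for adult against juvenile RFH and in 27 for juvenile RFH against WT, leaving out arrays included; none was called before or after. The changed value reached 0.1 in size in 5 cases: with the mean of probe sets EIF3D became -0.35 and, for juvenile RFH against WT, EIF4H -0.36, SARS -0.14 and GARS -0.115, and without adult replicate 2 VARS became -0.11. The other sign changes among the genes of the naming rule were smaller. EEF1AKMT1 became -0.039 with quantile normalization and -0.015 with array weights (-0.0701 to 0.0543 with an array left out). EIF4G1 became -0.034, -0.0068 and, with the mean of probe sets, -0.017 (-0.0603 to 0.0764). GARS became -0.0074 with quantile normalization (-0.0536 to 0.115). For juvenile RFH against WT, EIF5A became -0.0036 with cyclic loess, and with the mean of probe sets EEF1A1 became -0.0063. The mean 3' minus 5' control difference between adult and juvenile RFH became 0.0258 with quantile normalization (-0.217 to 0.147). The causes were not tested.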
